A study of Arabidopsis thaliana with 33 samples.

Results

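Open chromatin in unstressed seedlings was mapped by 2 assays, and the regions that each assay listed were set against each other. The DNase-seq list held 70807 peaks and the FAIRE-seq list held 72789, together 143596 of the 698102 peaks in the 10 deposited lists of the series. All peaks on chromosomes 1 to 5 were kept, and neither list held the same coordinates more than once. A peak was called shared when it had at least 1 base in common with a peak of the other list, and DNase-only or FAIRE-only otherwise.

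The seedlings were Arabidopsis thaliana of accession Columbia-0, with no mutation or transgene named, 10 days old, grown on sucrose-containing plates and given no stress. DNase-seq and FAIRE-seq had 3 libraries each, 6 of the 33 libraries of the series, and each group of libraries was represented by 1 pooled peak list. The sample titles mark the groups with D and F, which were taken as the initials of the assays. The 8 stress lists used further on came from seedlings of the same accession and age, after heat (38 °C for 6 h), cold (4 °C for 24 h), salt (250 mM sodium chloride for 6 h) or air drying for 1 h, with 3 libraries per list and 2 in the cold lists. With 1 list per assay there is no replicate error and no test between lists. The 95% Wilson intervals below cover counting error only, neighbouring peaks are not independent, and the sequencing depth is unknown.

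DNase I is a nuclease that cuts DNA where nucleosomes are absent or loosely bound, and DNase-seq sequences the ends of the fragments it releases. FAIRE-seq fixes chromatin with formaldehyde, shears it, and recovers the DNA that stays in the aqueous phase because little protein is crosslinked to it. Both are used to find promoters, enhancers and other regulatory DNA, and in Arabidopsis DNase hypersensitive sites are known mainly from the DNA just upstream of transcription starts. In whole seedlings, a site that is open in few cells and a site that is weakly open in many cannot be told apart.

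The lists were of similar length but differed in the shape of their peaks. DNase-seq peaks had a median width of 231 bp (quartiles 156 and 373 bp, longest 4194 bp) and covered 21.5 Mb, or 18.1% of the 119.1 Mb spanned. FAIRE-seq peaks had a median width of 192 bp (138 and 288 bp, longest 3156 bp) and covered 17.5 Mb, or 14.7%. Peaks of at least 1000 bp numbered 1338 in DNase-seq (1.89%) and 324 in FAIRE-seq (0.445%). Strength was read from the fold enrichment over local background that the authors' peak caller gave at each summit. Its median was 2.88 in DNase-seq (range 1.24 to 6.78) and 2.16 in FAIRE-seq (1.24 to 6.46), and the median −log10 p was 20.3 and 9.32. These scales belong to each list, so strengths are compared below only by rank within a list, where 100 is the strongest peak.

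Most peaks of each assay had a counterpart in the other. Of the DNase-seq peaks, 42717 were shared (60.3%, interval 60.0 to 60.7) and 28090 were DNase-only (39.7%). Of the FAIRE-seq peaks, 46250 were shared (63.5%, 63.2 to 63.9) and 26539 were FAIRE-only (36.5%). The summit of a DNase-seq peak lay inside a FAIRE-seq peak in 49.1% of cases, where FAIRE-seq peaks covered 14.7% of bases. The summit of a FAIRE-seq peak lay inside a DNase-seq peak in 54.2% of cases, where DNase-seq peaks covered 18.1% of bases. Both shares of summits were well above the coverage of the list they were read against. The lists had 9.96 Mb in common, which was 46.3% of the DNase-seq bases, 56.9% of the FAIRE-seq bases and 34.3% of the bases in either list. On single chromosomes the shared part ran from 60.0% to 61.4% of DNase-seq peaks and from 62.7% to 64.1% of FAIRE-seq peaks, so no chromosome stood apart.

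Shared sites were mostly matched peak for peak. The 47884 overlapping pairs included 35441 in which each peak touched no other, which held 83.0% of the shared DNase-seq peaks and 76.6% of the shared FAIRE-seq peaks. A DNase-seq peak touched 2 or more FAIRE-seq peaks in 4555 cases, with at most 9, and a FAIRE-seq peak touched 2 or more DNase-seq peaks in 1584 cases, with at most 4. In the peak-for-peak pairs the summits lay a median of 51 bp apart (quartiles 19 and 125 bp), within 50 bp in 49.4% and within 150 bp in 80.0%. The DNase-seq member was the wider in 62.8% of pairs, with a median of 272 bp against 223 bp for the FAIRE-seq member. Fold enrichments of the members had a Spearman rho of 0.32 across the 35441 pairs, which are genomic neighbours in the same libraries and not independent. For pairs with both summits in a gene rho was 0.36 (25797 pairs), for pairs in the 1000 bp outside a gene 0.07 (2487 pairs), and elsewhere 0.46 (6134 pairs). Flank pairs were thus the ones whose strengths followed each other least.

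Peaks on either side of the 1-base limit were alike. DNase-seq peaks that shared up to 20 bases numbered 502 and had a median fold enrichment of 2.60, and the 500 that missed a FAIRE-seq peak by up to 20 bp had 2.64. The 579 FAIRE-seq peaks just inside the limit had 1.99 and the 596 just outside had 2.07. Most assay-only peaks were farther away. DNase-only peaks lay a median of 486 bp from the nearest FAIRE-seq peak, with 22.9% within 200 bp and 24.7% beyond 1000 bp. FAIRE-only peaks lay a median of 447 bp from the nearest DNase-seq peak, with 25.8% within 200 bp and 23.1% beyond 1000 bp.

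DNase-only peaks were narrow and weak for their list, whereas FAIRE-only peaks were narrow but close to average in strength. Their median width was 175 bp in the DNase-only class, against 293 bp in shared DNase-seq peaks, and the median fold enrichments were 2.53 and 3.20. In FAIRE-seq the median widths were 155 bp in the FAIRE-only class and 225 bp in shared peaks, with fold enrichments of 2.12 and 2.19. The strongest 10% of the DNase-seq list held 3.39% of DNase-only peaks and 14.4% of shared ones. The strongest 10% of the FAIRE-seq list held 8.51% of FAIRE-only peaks and 10.9% of shared ones. Broad peaks were nearly all shared, 1310 of 1338 in DNase-seq and 323 of 324 in FAIRE-seq.

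**Figure D1:**
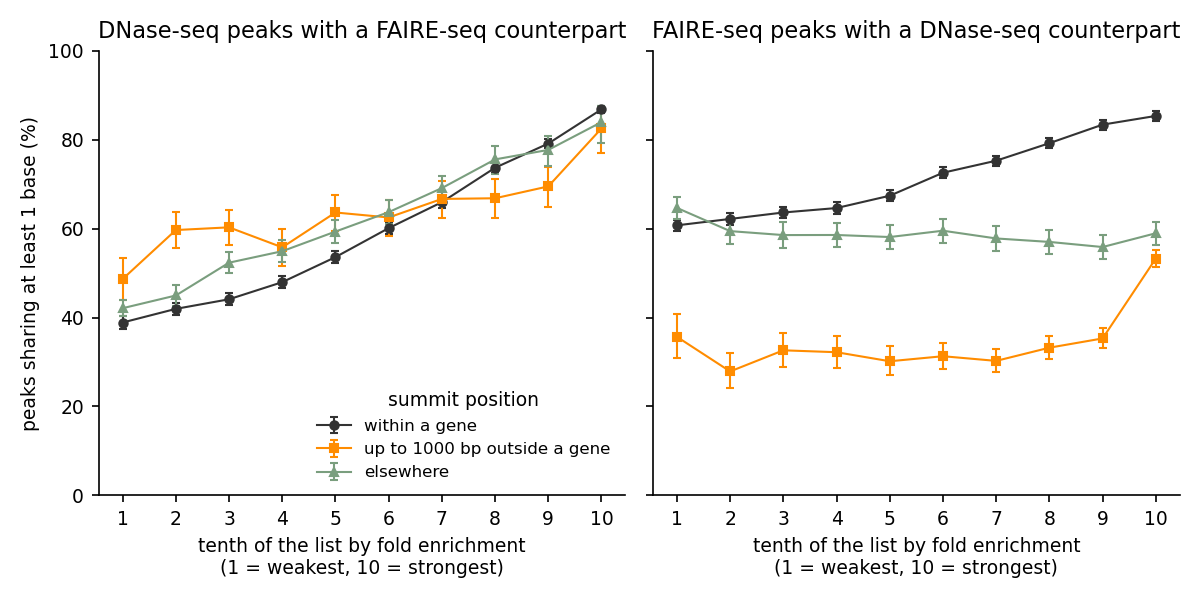
Share of peaks that had at least 1 base in common with the other assay's list (vertical axis, %), in 10 equal classes of the list ranked by fold enrichment (horizontal axis, weakest on the left), for DNase-seq peaks (left) and FAIRE-seq peaks (right). Points are shares in 1 pooled list, bars are 95% Wilson intervals, and colours give the position of the summit; DNase-seq shares are highest in the strongest 10% at all positions, while FAIRE-seq peaks outside genes stay at 53.3% or lower in flanks and at 64.7% or lower elsewhere.

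The share of peaks with a counterpart depended on strength in the DNase-seq list far more than in the FAIRE-seq list. From the weakest to the strongest 10% it went from 40.7% to 86.6% of DNase-seq peaks and from 60.3% to 69.0% of FAIRE-seq peaks. Wider peaks meet another list more easily, and the median width went from 137 to 424 bp over the DNase-seq classes and from 138 to 306 bp over the FAIRE-seq classes. By summits within 150 bp of each other, a rule that uses no peak width, the share was 34.4% in the weakest and 61.6% in the strongest 10% of DNase-seq peaks. In FAIRE-seq it was 43.5% and 46.3%. The place of the summit separated the FAIRE-seq peaks, as the plot of shares by strength class shows. Within genes the share with a DNase-seq counterpart was 60.7% in the weakest and 85.3% in the strongest 10%. In the flanks, up to 1000 bp outside a gene, it was 35.7% and 53.3%, and it was 37.4% over all flank peaks. Elsewhere it was 64.7% and 59.0%. In the strongest 10% of DNase-seq peaks the places were closer, with 86.8% shared within genes, 82.5% in flanks and 83.9% elsewhere. In the weakest 10% the share was 38.9% within genes (37.4 to 40.4), 48.6% in flanks (43.8 to 53.5) and 42.1% elsewhere, so there the flank peaks of DNase-seq were shared more often than those within genes.

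FAIRE-only peaks lay in gene flanks far more often than DNase-only peaks did. Genes were placed by RefSeq (assembly TAIR10.1), whose table used here lists 27444 protein-coding genes without strand, so gene starts and gene ends are treated alike. Genes covered 54.1% of the bases, flanks of 1000 bp 20.4% and the rest 25.5%. DNase-only summits were within genes in 73.3% (72.8 to 73.9), in flanks in 6.24% (5.96 to 6.53) and elsewhere in 20.4%. FAIRE-only summits were within genes in 55.1% (54.5 to 55.7), in flanks in 24.9% (24.4 to 25.5) and elsewhere in 19.9%. The shared peaks of the assays were alike in place, with 76.2% of DNase-seq and 75.0% of FAIRE-seq summits in genes and 6.82% and 8.55% in flanks. Shared peaks overlap each other by rule, so their alike places largely follow from it. Assay-only peaks lie by rule where the other list has none, so part of their contrast in place follows from it too. Over all peaks, 6.59% of DNase-seq and 14.5% of FAIRE-seq summits lay in flanks, both below the 20.4% of bases there. Flank peaks also took different ranks: the median rank of flank summits was 44.9 in the DNase-seq list and 72.3 in the FAIRE-seq list, and that of summits within genes was 55.4 and 45.1. Flank peaks thus ranked above peaks within genes in the FAIRE-seq list and below them in the DNase-seq list.

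**Figure D2:**
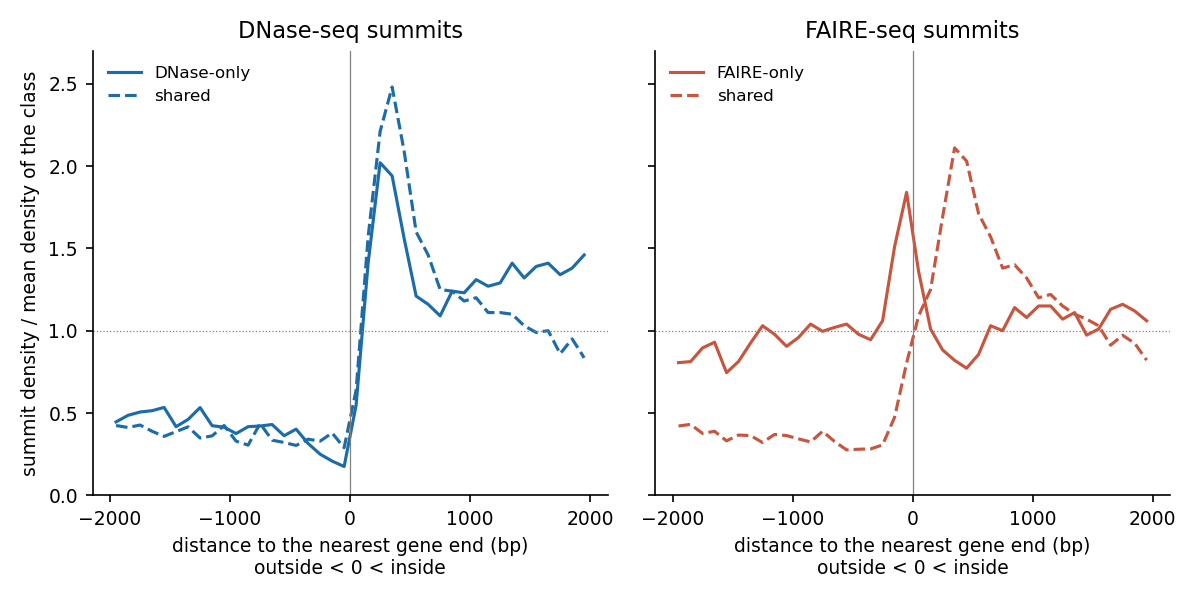
Density of summits around the nearest end of a protein-coding gene, in bins of 100 bp, relative to the mean density of each class (vertical axis; horizontal axis, distance in bp, outside negative and inside positive), for DNase-seq (left) and FAIRE-seq (right). Solid lines are assay-only and dashed lines shared peaks; DNase-only density is lowest just outside the gene end at 0.175 times its mean, where FAIRE-only density is highest at 1.84 times.

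At gene ends the assay-only classes were opposites, in part by rule, since an assay-only peak lies where the other list has none. Both DNase-seq classes were sparse just outside gene ends, so FAIRE-seq peaks there were more readily classed as FAIRE-only. DNase-only summits were densest 200 to 300 bp inside a gene end, at 2.02 times the class mean, and sparsest in the first 100 bp outside it, at 0.175 times. Shared DNase-seq summits were densest 300 to 400 bp inside (2.48 times) and sparsest in the first 100 bp outside (0.289 times). FAIRE-only summits were densest in those same first 100 bp outside, at 1.84 times their mean, and stood at 1.36 times in the first 100 bp inside. Shared FAIRE-seq summits were densest at 300 to 400 bp inside (2.11 times), where shared DNase-seq summits were. Outside the gene they differed from DNase-seq: their density was highest in the first 100 bp, at 0.803 times, and lowest 500 to 600 bp out, at 0.276 times. This depletion of DNase-seq summits at gene ends goes against the place where hypersensitive sites are known to lie in Arabidopsis. A constant shift of all coordinates on a chromosome was looked for, with gene starts and ends pooled. Among offsets of up to 500 bp, the lowest DNase-seq count at gene ends lay at 0 or −50 bp on all 5 chromosomes. Whether reads were shifted or extended before peak calling is not stated in the labels, and the effect of such steps on summit positions was not tested.

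**Figure D3:**
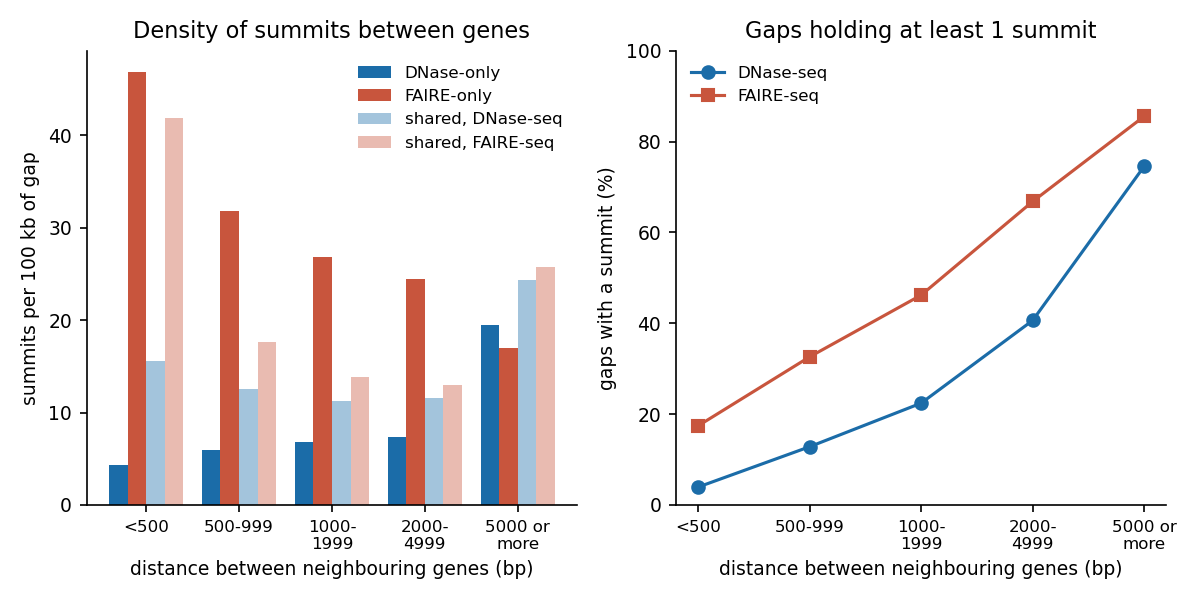
Summits per 100 kb of the gaps between neighbouring protein-coding genes (left) and share of gaps with at least 1 summit in % (right), by length of the gap in bp. Bars and lines are counts from 1 pooled list per assay without error bars; DNase-only summits are sparsest in gaps below 500 bp (4.31 per 100 kb), where FAIRE-only summits are densest (46.8 per 100 kb).

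Short gaps between genes held mainly FAIRE-seq summits. In the 8659 gaps below 500 bp the DNase-seq list had 4.31 DNase-only and 15.6 shared summits per 100 kb, and the FAIRE-seq list had 46.8 FAIRE-only and 41.9 shared ones. Since assay-only peaks lie where the other list has none, part of the contrast between these classes follows from the rule. Over shared and assay-only peaks together, a summit fell in 3.94% of the gaps below 500 bp in DNase-seq and in 17.4% in FAIRE-seq. In gaps of 5000 bp or more the order of the assay-only classes was the other way round, with 19.5 DNase-only and 17.0 FAIRE-only summits per 100 kb. A summit was then present in 74.6% of gaps in DNase-seq and 85.6% in FAIRE-seq. Of 5 classes of 100 kb bins by gene coverage, the gene-poorest, with at most 34.4% of bases in genes, also had more DNase-seq than FAIRE-seq peaks, 56.2 against 48.6 per 100 kb. The gene-richest class had 67.9 DNase-seq and 66.2 FAIRE-seq peaks per 100 kb. The 3 classes between went the other way, with 51.3, 57.6 and 63.9 DNase-seq peaks and 57.5, 64.9 and 68.2 FAIRE-seq peaks per 100 kb in order of gene coverage. DNase-only peaks numbered 24.8, 18.9, 21.0, 24.3 and 28.7 per 100 kb from the gene-poorest to the gene-richest class, and FAIRE-only peaks 15.6, 22.0, 24.7, 25.3 and 23.8.

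Which assay reached more genes differed between the classes of the gene table. Protein-coding genes held a summit within their bounds in 88.5% of cases in DNase-seq and 84.9% in FAIRE-seq, and pseudogenes in 71.7% and 65.1%. Genes of long non-coding RNA had the other order, with 45.5% in DNase-seq (43.8 to 47.1) and 49.4% in FAIRE-seq (47.7 to 51.1). Both assays were scored on the same genes, so their intervals are not independent and give no test between assays. DNase-seq alone and FAIRE-seq alone held 8.17% and 4.56% of protein-coding genes and 11.9% and 5.31% of pseudogenes. For long non-coding RNA these shares were 12.1% and 16.0%. Short RNA genes, whose median length was 73 bp for transfer RNA and 92 bp for small nucleolar RNA, were hit less often than protein-coding genes. Transfer RNA genes held a summit in 45.4% (41.6 to 49.4) in DNase-seq and 49.6% (45.7 to 53.5) in FAIRE-seq, microRNA genes in 16.9% (13.2 to 21.3) and 20.2% (16.2 to 24.9). Small nucleolar RNA genes did so in 12.5% (9.20 to 16.9) and 10.5% (7.42 to 14.5). DNase-seq alone and FAIRE-seq alone held 12.3% and 16.5% of transfer RNA genes, 6.1% and 9.5% of microRNA genes, and 7.7% and 5.6% of small nucleolar RNA genes.

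Around most protein-coding genes both assays listed a site. In the DNA reaching 1000 bp out of and 200 bp into a gene from each of its ends, 72.7% of the 27444 genes had a DNase-seq summit and 80.7% had a FAIRE-seq summit. Both were present in 64.6%, DNase-seq alone in 8.05% (2208 genes), FAIRE-seq alone in 16.1% (4410 genes) and neither in 11.2% (3085 genes). Over the whole gene and 1000 bp either side 94.7% of genes had a DNase-seq summit, 93.8% a FAIRE-seq summit and 91.1% both, while DNase-seq alone made up 3.53%, FAIRE-seq alone 2.68% and neither 2.64%. Since 735 genes had FAIRE-seq alone in the wider window, at most 735 of the 4410 with FAIRE-seq alone at their ends lacked a DNase-seq summit in the body. Even where both assays had a summit at the ends, the strongest ones overlapped in only 44.8% of the 17741 genes. The strongest DNase-seq summit lay in a flank in 17.6% of genes with one, and the strongest FAIRE-seq summit in 42.6%. A summit between close neighbours counts for both genes, so members of tandem arrays are not independent.

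**Figure D4:**
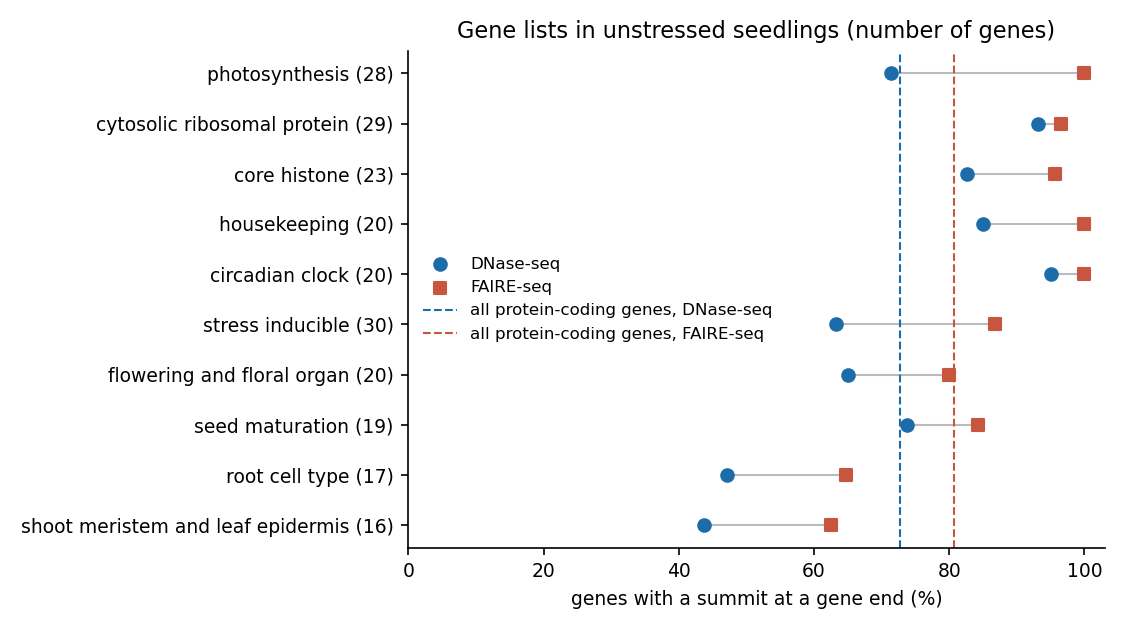
Share of the genes of 10 lists with a summit at a gene end, 1000 bp out to 200 bp in (horizontal axis, %), in DNase-seq (circles) and FAIRE-seq (squares). Dashed lines give the shares over all protein-coding genes, 72.7% and 80.7%; the widest distance between circle and square is that of the photosynthesis genes, 71.4% and 100%.

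The photosynthesis list had a FAIRE-seq summit at the ends of every member. The nuclear photosynthesis genes, which encode light-harvesting proteins, Rubisco small subunits and photosystem parts, had a DNase-seq summit in 20 of 28 members and a FAIRE-seq summit in all 28, beside 72.7% and 80.7% over all genes. The 8 members with FAIRE-seq alone included LHCA1 and LHCA4 of the photosystem I antenna, LHCB2.1 of the photosystem II antenna and RCA, the Rubisco activase. The median rank of the strongest summit was 58.1 in DNase-seq and 86.1 in FAIRE-seq, beside 69.8 and 75.0 over all genes. All 28 genes had a DNase-seq peak once the gene body was counted, and some of these were among the strongest of the list. At LHCA4 the DNase-seq peak at chr3:17494450-17494829 (TAIR10) had a fold enrichment of 6.30 (rank 99.8) and lay within the gene. The FAIRE-seq peak of LHCA4, at chr3:17494857-17495365, had its summit in the flank, a fold enrichment of 3.46 (rank 95.2) and no base in common with it. RBCS1A, a Rubisco small subunit gene, had a DNase-seq peak of 6.44 (rank 99.9) in the body, where FAIRE-seq had a shared peak of 4.47 (rank 99.3), and a FAIRE-only flank peak of 2.12 (rank 45.9). The end peaks of LHCA1, LHCB2.1 and RCA had FAIRE-seq ranks of 96.1, 95.5 and 94.2 and were all shared.

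Genes of the translation and chromatin machinery had summits at their ends in both assays more often than all genes had. Cytosolic ribosomal protein genes had them in 27 of 29 in DNase-seq and 28 of 29 in FAIRE-seq, and all 27 were also in the FAIRE-seq count. The median rank of the strongest summit was 73.3 in DNase-seq and 76.3 in FAIRE-seq, so this family stood close to all genes in both lists. RPS15, a small subunit protein gene, had 5.02 (rank 93.9) in DNase-seq and 4.00 (rank 98.2) in FAIRE-seq, at separate sites that were both shared and within a gene. RPL23AB, a large subunit protein gene, was the member with FAIRE-seq alone, at 2.54 (rank 75.1). Core histone genes had a summit in 19 of 23 (82.6%) in DNase-seq and 22 of 23 (95.7%) in FAIRE-seq, with median ranks of 66.8 and 90.1. Their strongest DNase-seq summit lay in a flank in 2 of 19 genes (10.5%), and their strongest FAIRE-seq summit in 14 of 22 (63.6%), beside 17.6% and 42.6% over all genes. The histone H4 gene AT5G59690 had a shared DNase-seq peak of 4.69 (rank 90.6) within a gene, and a FAIRE-only flank peak of 4.31 (rank 99.1). The H4 gene AT3G45930 lacked a DNase-seq summit at its ends but carried a FAIRE-only flank peak of 3.89 (rank 97.8). The other members with FAIRE-seq alone, AT3G53730 and AT3G46320, had weaker end peaks of 2.13 (rank 47.2) and 2.12 (rank 45.9). All 3 had a shared DNase-seq peak in the body.

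Reference genes of expression studies and clock genes also had a FAIRE-seq summit at the ends of all members. Over all genes 72.7% had an end summit in DNase-seq and 80.7% in FAIRE-seq, with median ranks of 69.8 and 75.0. The 20 housekeeping genes had one in 17 cases in DNase-seq and in 20 in FAIRE-seq, with median ranks of 63.1 and 85.5. The 3 without a DNase-seq summit at their ends had one in the body. AT2G28390, of the SAND family, had 5.53 (rank 97.3) in its body in DNase-seq and 3.73 (rank 97.0) at an end in FAIRE-seq. The translation elongation factor gene AT5G60390 had 5.74 (rank 98.3) in its body in DNase-seq and 2.10 (rank 44.3) at an end in FAIRE-seq. AT4G34270, a TIP41-like gene, had 4.86 (rank 92.5) in its body in DNase-seq and 1.94 (rank 26.5) at an end in FAIRE-seq. In FAIRE-seq AT5G60390 also had a shared body peak of 2.74 (rank 83.3), stronger than the one at its end. All 3 genes were thus listed by DNase-seq in the body, and the absence of DNase-seq applied to the ends. Of the 20 circadian clock genes, 19 had a DNase-seq summit and 20 a FAIRE-seq summit, with median ranks of 77.0 and 85.5. AT5G52660 was the member with FAIRE-seq alone, at 1.80 (rank 11.7), and had a DNase-only peak of 5.22 (rank 95.5) in the body. The morning factor LHY had a shared flank site at chr1:37943-38165 in DNase-seq, with 3.17 (rank 59.5), and at chr1:37825-38298 in FAIRE-seq, with 5.38 (rank 99.9). PRR9, a pseudo-response regulator, had a shared flank site of 3.84 (rank 77.2) in DNase-seq and 5.04 (rank 99.8) in FAIRE-seq. The morning factor CCA1 had one of 4.28 (rank 85.4) and 3.57 (rank 96.1). All 3 flank sites, named after their values were seen, ranked higher in FAIRE-seq. So did flank summits over the whole lists, with median ranks of 44.9 in DNase-seq and 72.3 in FAIRE-seq. Other clock genes had the reverse order for their strongest end peaks, among them PRR7 (87.9 and 65.3) and PRR5 (93.7 and 25.1), with these peaks within genes. ELF4, of the evening complex, had its DNase-seq peak within a gene at 5.93 (rank 99.0) and a shared FAIRE-seq peak in the flank at 3.32 (rank 93.9).

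Genes that seedlings induce under stress had summits at their ends in shares near those of all genes. Of 30 such genes, 19 had a DNase-seq summit at an end (63.3%, beside 72.7% over all genes) and 26 a FAIRE-seq summit (86.7%, beside 80.7%). The median ranks were 68.7 and 89.9, beside 69.8 and 75.0, and all 30 had both over the whole gene, beside 91.1%. At the cold regulator genes CBF2 and DREB1A, also called CBF3, DNase-seq summits were absent from the ends and present in the body, at 4.78 (rank 91.6) and 4.41 (rank 87.0). Their FAIRE-only flank peaks had 3.55 (rank 95.9) at chr4:13016227-13016472 for CBF2 and 3.90 (rank 97.8) at chr4:13017757-13018057 for DREB1A. The neighbouring CBF1 had a shared flank site, with 3.06 (rank 55.9) in DNase-seq and 3.91 (rank 97.8) in FAIRE-seq. At all 3 CBF genes the flank site thus ranked high in FAIRE-seq, and in DNase-seq it was middling or not listed. The tandem cold genes KIN1 and KIN2 counted the same FAIRE-only peak of 3.85 (rank 97.6). HSP18.2, a small heat shock protein gene, had a DNase-seq peak of 4.39 (rank 86.9) in the body and a FAIRE-seq peak of 3.55 (rank 95.9) at an end. The heat shock genes HSP17.6II and HSP21, the factor gene DREB2A and the alcohol dehydrogenase gene ADH1 had neither at their ends.

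Genes that are used mainly at other stages had more FAIRE-seq than DNase-seq members too, and shares near those of all genes. Flowering and floral organ genes had a DNase-seq summit in 13 of 20 and a FAIRE-seq summit in 16 of 20, with median ranks of 49.3 and 84.6. None of the 13 strongest DNase-seq peaks was DNase-only (beside 31.6% over all genes), whereas 10 of the 16 strongest FAIRE-seq peaks were FAIRE-only (62.5%, beside 40.7% over all genes). At their ends AGL8, also called FRUITFULL, had FAIRE-seq alone at 3.44, the repressor SVP at 2.54 (rank 75.5) and AGL24 at 2.15 (rank 49.1), and all 3 had a DNase-only peak in the body, at 2.76 (rank 45.5), 4.85 (rank 92.4) and 2.80 (rank 46.5). Seed maturation genes had 14 and 16 of 19, and were the list in which DNase-seq ranked higher, with medians of 70.1 and 61.2. There the storage protein gene CRU2 had DNase-seq alone at 2.90 (rank 50.8), while the embryo regulator LEC2 had FAIRE-seq alone at 3.41 (rank 94.7). The end peaks of the other genes with FAIRE-seq alone were weaker, 2.15 (rank 48.1) at GEA6 and 1.83 (rank 14.7) at the embryo regulator LEC1. These 4 genes had a peak of the other assay in the body.

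Root and shoot marker genes both had summits, in lower shares than the 72.7% (DNase-seq) and 80.7% (FAIRE-seq) of all genes. Root cell type genes had a DNase-seq summit at an end in 8 of 17 and a FAIRE-seq summit in 11 of 17, and only 4 had both. DNase-seq alone was found in 4 of 17 (23.5%, beside 8.05% over all genes), among them RHD6, a root hair factor, at 3.88 (rank 77.9) and VND7, a xylem vessel factor, at 3.40 (rank 66.2). FAIRE-seq alone was found in 7 of 17 (41.2%, beside 16.1%), among them MYB66, or WEREWOLF, at 3.95 (rank 98.0) and the stem cell factor PLT2 at 3.60 (rank 96.2). Over the whole gene RHD6 still had DNase-seq alone and MYB66 FAIRE-seq alone, whereas VND7 and PLT2 had both. Shoot meristem and leaf epidermis genes had a DNase-seq summit in 7 of 16 and a FAIRE-seq summit in 10 of 16. The boundary factor CUC2 had DNase-seq alone at 4.48 (rank 88.1), and its relative CUC3 had FAIRE-seq alone at 3.92 (rank 97.9). In the bodies of both genes the other assay had a shared peak, FAIRE-seq in CUC2 at 3.34 (rank 94.1) and DNase-seq in CUC3 at 4.75 (rank 91.4). The stomatal factor SPCH had FAIRE-seq alone at its ends at 3.25 (rank 93.0), and a shared DNase-seq body peak of 5.70 (rank 98.1). The stem cell peptide gene CLV3 had FAIRE-seq alone at 1.99 (rank 32.4), and a DNase-only body peak of 2.39 (rank 29.5). With 16 and 17 genes, 1 gene moves these shares by about 6 percentage points.

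The 10 strongest DNase-only peaks lay inside genes, beside 92.5% of all peaks in the strongest 10% of the DNase-seq list. The first was at chr3:5605108-5605466 in IQD26, a calmodulin-binding protein gene, with a fold enrichment of 6.44 (rank 99.93), 523 bp from the gene end and 363 bp from the nearest FAIRE-seq peak. Next came AT2G36950 with 6.27, the carboxypeptidase-like gene scpl48 with 6.24, AT1G21730 with 6.23 and the arabinogalactan peptide gene AGP16 with 6.21. The xylulose kinase gene XK-2 (6.20), AT1G33290 (6.17), AT3G10130 (6.17), AT5G06580 (6.13) and AT3G23170 (6.10) completed the first 10. Their summits lay 80 to 523 bp inside the gene end, and their distance to FAIRE-seq peaks was 140 to 1014 bp. Being DNase-only they missed the unstressed FAIRE-seq list. Each had a counterpart in 1 to 4 of the stress FAIRE-seq lists and in all 4 stress DNase-seq lists. Of the 952 DNase-only peaks in the strongest 10%, 857 were in at least 1 stress FAIRE-seq list. All 4 stress DNase-seq lists held 90.97% of these 952, so the 10 peaks stood close to their class.

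The strongest FAIRE-only peaks were mostly outside genes. AT3G13740 had the first, at chr3:4506800-4507044 with 5.43 (rank 99.94), 590 bp outside the gene. HB-12, a homeobox gene that responds to drought and abscisic acid, had one of equal strength at chr3:22917297-22917550, 2048 bp from the gene and 2152 bp from the nearest DNase-seq peak. LBD11, of the LOB-domain factors, followed with 5.24 at chr2:12185772-12186027, 406 bp outside. AT3G03270 and AT5G40340 had peaks of 5.24 within the gene, and AT2G19180 one of 5.04 in the flank. RbcX1, a Rubisco assembly chaperone gene, AT4G29700, AT5G57123 and the farnesylated protein gene FP3 had 5.01 each. Of the 10 summits, 5 lay in flanks, 3 elsewhere and 2 in genes, beside 34.9% in flanks and 45.5% in genes for the strongest 10% of the FAIRE-seq list. All 10 had a counterpart in exactly the heat and the cold DNase-seq lists, and none had one in the salt or drought DNase-seq list. Over all FAIRE-only peaks in the strongest 10%, the heat, cold, salt and drought DNase-seq lists held 72.2%, 48.6%, 1.20% and 6.68%.

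The 10 strongest shared sites, which overlap between the assays by rule, were also present in every stress list. The first was at AT2G16586, with 6.78 in DNase-seq at chr2:7190874-7191569 and 6.46 in FAIRE-seq at chr2:7190884-7191556, both the highest of their list, and summits 12 bp apart. The site near AT2G48160 had the same values, with summits 3 bp apart. Next were AT2G22790 (6.54 in DNase-seq and 5.75 in FAIRE-seq), AT1G05370 (6.51 and 6.17) and BRG2, a RING domain gene (6.54 and 5.61). A site on chromosome 3 with 6.46 and 6.27 lay 102982 bp from its nearest protein-coding gene, AT3G32980, with coinciding summits. AT1G20823 (6.37 and 5.43), the plasmodesma gene PDLP6 (6.34 and 5.46), ESC, an AT-hook gene (6.47 and 5.13), and AT3G52700 (6.37 and 5.11) followed. All 10 pairs had counterparts in the 4 DNase-seq and the 4 FAIRE-seq stress lists. Shared DNase-seq peaks in the strongest 10% were held by single stress lists in 90.5% (cold FAIRE-seq) to 100% (drought DNase-seq). Whether reads from repeated sequence enter such peaks was not tested.

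**Figure D5:**
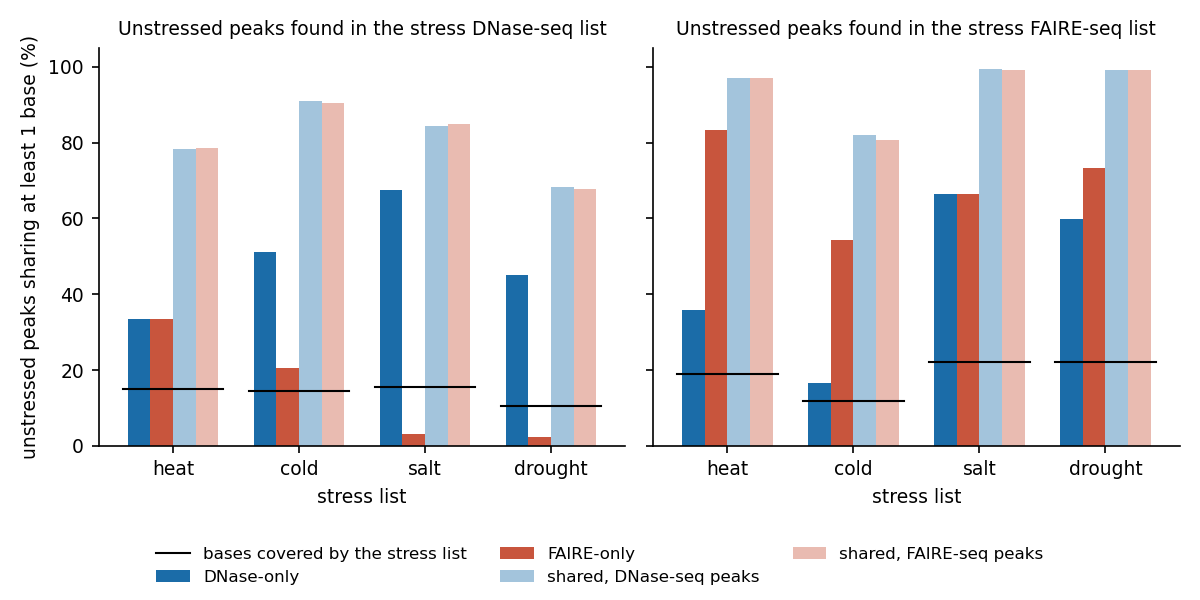
Share of unstressed peaks with at least 1 base in common with each stress list (vertical axis, %), for the DNase-seq stress lists (left) and the FAIRE-seq stress lists (right). Bars are DNase-only, FAIRE-only and shared peaks of 1 pooled list each without error bars. Black lines give the bases that each stress list covers, which is a low mark for whole peaks. FAIRE-only peaks reach 33.6% and 20.7% in the heat and cold DNase-seq lists and 3.22% and 2.21% in the salt and drought ones.

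The other 8 lists come from libraries that the 3 classes did not use, and they show which assay-only peaks were found again. In the DNase-seq lists of heat, cold, salt and drought, DNase-only peaks had a counterpart in 33.5%, 51.0%, 67.4% and 45.1%, where these lists covered 14.9%, 14.4%, 15.4% and 10.6% of bases. In the FAIRE-seq lists of the same stresses they had one in 35.9%, 16.5%, 66.4% and 59.8%, where the lists covered 19.0%, 11.9%, 22.0% and 22.2%. Coverage counts single bases, which meet a list less easily than whole peaks do, so it is a low mark for these shares. DNase-only peaks were thus found about as often in the salt FAIRE-seq list as in the salt DNase-seq list. At least 1 DNase-seq stress list held 82.5% of them (82.1 to 83.0) and at least 1 FAIRE-seq stress list held 73.1% (72.5 to 73.6). The 952 DNase-only peaks in the strongest 10% recurred in 91.2% to 100% in each DNase-seq stress list.

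FAIRE-only peaks behaved differently. The DNase-seq lists of heat, cold, salt and drought held 33.6%, 20.7%, 3.22% and 2.21% of them, and at least 1 held 41.2%. The FAIRE-seq lists of these stresses held 83.3%, 54.2%, 66.3% and 73.3%, and at least 1 held 90.2% (89.8 to 90.5). FAIRE-only peaks exclude by rule whatever the unstressed DNase-seq list held, so a DNase-seq list much like the unstressed one must have a low share. The salt and drought shares were below the 15.4% and 10.6% of bases those lists covered. The heat and cold shares were above the 14.9% and 14.4% covered. A whole peak, however, meets a list by 1 base more easily than a single base does. Whether the heat and cold shares exceed those of peaks placed at random was not tested. For the 2259 FAIRE-only peaks in the strongest 10%, the heat, cold, salt and drought DNase-seq lists held 72.2%, 48.6%, 1.20% and 6.68%. For the 6619 in flanks they held 45.1%, 22.6%, 0.831% and 4.35%, and for the 14627 within genes 32.4%, 21.5%, 3.04% and 1.39%. The 1187 that were both in flanks and in the strongest 10% were held in 75.2%, 50.3%, 0.505% and 6.91%. The heat, cold and drought shares were thus higher for strong FAIRE-only peaks, in flanks and over all places alike. The salt share was lower for strong peaks over all places. In flanks the salt counts were small, 6 of 1187 strong peaks and 55 of 6619 peaks, and their intervals overlapped (0.232 to 1.10 and 0.639 to 1.08). Strong FAIRE-seq peaks were also wider. Whether width, the stress, the 2 cold libraries or the preparation moved with these shares was not tested.

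Shared peaks recurred most widely. Shared DNase-seq peaks were held by the DNase-seq stress lists in 68.4% (drought) to 90.8% (cold) and by the FAIRE-seq stress lists in 81.9% (cold) to 99.3% (salt). All 8 lists held 3.50% of DNase-only and 0.0942% of FAIRE-only peaks, against 49.8% of shared DNase-seq peaks and 48.3% of shared FAIRE-seq peaks. None of the 8 held 7.74% of DNase-only peaks and 7.96% of FAIRE-only peaks. Assay-only peaks exclude by rule whatever the other assay listed in unstressed seedlings. Their low shares in all 8 lists, which include stress lists of that other assay, thus follow in part from the rule. Stress lists of the same assay give a narrower comparison. All 4 DNase-seq lists held 57.65% of shared DNase-seq peaks and 19.02% of DNase-only peaks. All 4 FAIRE-seq lists held 79.13% of shared FAIRE-seq peaks and 43.62% of FAIRE-only peaks. Shared peaks were also wider than assay-only ones, and the part of width in these shares was not tested.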

How the data were processed

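DNase-seq and FAIRE-seq were done on 3 unstressed libraries each. The titles gave the groups, and each group had 1 deposited peak list, so replicates were pooled, in a way not given in the sources used here. The submitters' processing notes name FastQC, Bowtie2, TopHat2, SAMtools, MACS2 and the build TAIR10, with no versions or settings. Nothing is stated of trimming, duplicate removal, the background library or any shift or extension of reads. The deposited lists give for each peak the fold enrichment (a ratio) at the summit over local background, written by the authors' peak caller. The authors' peak caller also wrote a −log10 p-value and a −log10 q-value for each peak, and the lowest −log10 q was 2.14 in DNase-seq and 2.04 in FAIRE-seq. The deposited score, 10 times −log10 q with decimals dropped, was left aside. Another deposited column gives the distance in bases of the summit from the peak start. Depth per library is unknown, since the lists hold no read totals.

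Peaks were compared by shared bases, with 95% Wilson intervals for shares. Ranks are percentile ranks within the list by fold enrichment, with ties averaged. Summits were placed against the 27444 protein-coding genes of the RefSeq TAIR10.1 table, matched by locus, and all 222 genes of the 10 lists matched. No test was made, because each assay has 1 list. The members and gene lists were chosen with earlier results of these data known. The named peaks were the 10 strongest of each assay-only class by fold enrichment and the 10 shared pairs with the highest lower rank, each with the nearest protein-coding gene. In each gene list up to 4 members with a summit at the ends in 1 assay alone were taken by fold enrichment. RBCS1A, RPS15, AT5G59690, LHY, PRR9, CCA1, ELF4, CBF1, KIN2 and the 4 stress genes with neither were named after their values were seen. Alternatives were stricter q-values, equal list lengths, 50% coverage, summits within 150 bp, flanks of 500 bp, other gene windows and, added after seeing the data, assay-only peaks more than 200 bp from the other list. The steps were tested on simulated data. Python 3.11.15 with numpy 2.4.6 and pandas 2.3.3 was used, and figures were drawn with matplotlib 3.10.9.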

Additional observations from a re-analysis of the deposited data

How the results depend on the processing

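Across the alternatives that were run, 33 of the 88 recomputed main values stayed within their counting interval or, for counts, within 1.5 times. The other 55 moved beyond these limits. Shares and counts cannot change sign, and the differences in median rank, which could, kept theirs. No paired analysis was possible because each group is 1 pooled list, and leaving out a library could not be run for the same reason. The planned promoter motif comparison and the placement against transcription starts were not run, since the gene table used here gives neither sequence nor strand. The share of peaks with a counterpart, 60.3% in DNase-seq and 63.5% in FAIRE-seq, was 52.1% and 63.9% with a −log10 q of at least 5 in both lists, and 61.0% and 65.0% with that limit in the classed list alone. It was 44.8% and 54.6% when 50% of the peak had to be covered and 46.7% and 45.5% with summits within 150 bp, where DNase-seq had the higher share, and in DNase-seq 58.9% with lists of equal length. The median rank of shared minus assay-only peaks, in percentage points, was 25.5 in DNase-seq and 7.97 in FAIRE-seq by −log10 p, 16.2 and 4.41 with 50% coverage, and 15.7 and 2.34 with summits within 150 bp.

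The flank share of DNase-only and FAIRE-only summits was 5.77% and 28.7% with the stricter q-value, 6.83% and 27.1% for peaks more than 200 bp from the other list, 5.42% and 23.4% with 50% coverage, 5.65% and 19.8% with summits within 150 bp, and 3.38% and 17.7% in flanks of 500 bp. Within genes the shares of DNase-only and FAIRE-only summits were 75.4% and 50.0%, 71.2% and 50.1%, 75.8% and 57.7%, and 75.9% and 63.0% under the first 4 of these settings. At least 1 DNase-seq stress list held 81.4% of DNase-only and 38.6% of FAIRE-only peaks more than 200 bp from the other list, and 80.1% and 33.9% with summits within 150 bp. At least 1 FAIRE-seq stress list held 71.1% and 89.2% of them, and 67.1% and 87.9%, under the same settings. With a window of 500 bp outside to 100 bp inside, 11301 genes had a DNase-seq summit, 8703 had both, 7081 had FAIRE-seq alone and 9062 had neither. With a window of 2000 bp outside to 500 bp inside, 759 genes had DNase-seq alone, 739 FAIRE-seq alone and 440 neither. Over the whole gene 970 had DNase-seq alone, 735 FAIRE-seq alone and 725 neither, so the excess of genes with FAIRE-seq alone held for gene ends and not for these wider windows. Over the whole gene, DNase-seq summits were found in 16 of the 16 shoot and epidermis genes, 16 of the 17 root genes and 30 of the 30 stress-inducible genes, and FAIRE-seq summits in 16 of the 16 shoot and epidermis genes. The cause of these differences between settings was not tested. Unknown depth limits all comparisons of list lengths.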
